A study of Homo sapiens with 6 samples.

Results

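The protein kinase C isoforms are a family of serine and threonine kinases, and 8 of them were followed here in RNA recovered with the Argonaute protein AGO2: PRKCA, PRKCB, PRKCD, PRKCE, PRKCH, PRKCQ, PRKCI and PRKCZ. They were chosen by gene symbol, with earlier results of these data known. Each of the 8 had a probe set that named no other gene, out of 18417 genes read by such probe sets. The cells were PC3, an androgen-independent and aggressive line derived from a human prostate cancer. They had been transfected with a mimic of miR-205 (3 samples) or with a negative control mimic (3 samples). All 6 samples, 1 array each, were immunoprecipitated with a rat antibody against AGO2 before hybridisation to Affymetrix gene arrays. AGO2 holds microRNAs on the transcripts they pair with. Mimic dose and time after transfection were not given in the sources used here, and 1 cell line was studied.

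Protein kinase C enzymes relay signals that release the membrane lipid diacylglycerol. The classical isoforms (PRKCA and PRKCB) need diacylglycerol and calcium, a second class (PRKCD, PRKCE, PRKCH and PRKCQ), called the diacylglycerol-only isoforms here, needs diacylglycerol but not calcium, and the atypical isoforms (PRKCI and PRKCZ) need neither and work in cell polarity complexes. Isoforms can act in opposite ways: PRKCE is linked to growth and survival of prostate cancer cells, whereas PRKCD is often linked to apoptosis. PRKCE has been reported elsewhere as a direct target of miR-205 in prostate cells.

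A microRNA finds its targets mainly through its seed, the bases from 2 to 8 counted from its 5′ end. The 2 mature RNAs of the MIR205 gene are shown because the labels name the mimic only as miR-205, with no arm. They are from RefSeq (GRCh38.p14, plus strand), written 5′ to 3′ with the seed in capitals. The 5p arm lies at chr1:209432166-209432187 and the 3p arm at chr1:209432203-209432223.
hsa-miR-205-5p: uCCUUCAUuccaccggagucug
hsa-miR-205-3p: gAUUUCAGuggagugaaguuc
A perfect seed match in a transcript would read AUGAAGG for the 5p arm and CUGAAAU for the 3p arm. Neither seed occurred in any other of the 2351 distinct mature human microRNA sequences of the table. Transcript sequences were not used here, so the isoforms were not searched for these letters.

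The values are log2 intensities after RMA, a method that adjusts for background, aligns the distributions of the arrays and summarises the probes of each probe set. Array medians lay between 6.82 and 6.86. A signal was called dim if its mean over the 6 arrays was under 6.04. That level is the 95th percentile over 341 genes of olfactory receptors, which most non-olfactory cells do not express. PRKCB and PRKCQ were dim by this measure and the other 6 isoforms were not. Of the epithelial markers, 5 of 5 were above that level (list means per array 10.56 to 10.62 with miR-205 and 9.42 to 9.51 with the control). Of the leukocyte markers, 2 of 8 measured ones were above it (5.05 to 5.11 with miR-205 and 5.08 to 5.17 with the control), and PTPRC, the pan-leukocyte CD45 gene, stood at 3.61. Of the fibroblast markers, 4 of 6 were above it, among them the collagen gene COL1A1 (9.05 with miR-205 and 8.94 with the control). The fibroblast list means per array were 5.80 to 5.97 with miR-205 and 5.82 to 5.90 with the control. In this list 1 marker passed as higher and 1 as lower, both close to the threshold of 0.05. LUM was higher in the dim range (3.40 with miR-205 and 3.03 with the control, adjusted p = 0.0459 by limma). PDGFRA was lower (6.11 and 6.41, adjusted p = 0.0493 by limma). Among the 5 epithelial markers, 4 passed as higher with miR-205, and KRT19 did not pass. Their log2 changes were 2.29 for EPCAM, 1.91 for CDH1, 0.89 for KRT8, 0.55 for KRT18 and -0.03 for KRT19. Of the luminal prostate markers, 2 of 6 were measured. KLK2 averaged 6.38 with miR-205 and 6.39 with the control. KLK3 averaged 6.06 and 6.08, barely above the dim level of 6.04. It lay under that level in miR-205 replicate 1 (6.01) and control replicate 2 (5.98). Control replicate 2 differed from the other control arrays in some genes. Among the isoforms it lay furthest outside them for PRKCB (by -0.33) and PRKCE (by -0.20). The other control arrays were not measured in this way, so these values do not single out replicate 2.

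Of the 8 isoforms, 3 fell with the miR-205 mimic: PRKCH the most, then PRKCA and PRKCE. None rose. The classical and diacylglycerol-only classes each held both falling isoforms and isoforms that did not pass, and neither atypical isoform passed. The test was limma's moderated comparison across all 18417 genes, with Benjamini-Hochberg adjustment and a threshold of 0.05, from which all adjusted p-values below come unless another fit is named. By this test 3 of 8 isoforms (37.5%) were lower and 0 higher, against 14.0% of all genes lower and 12.6% higher (26.6% in either direction). The family was chosen with earlier results of these data known, so its shares against all genes are descriptive and test nothing about the family. At an unadjusted limma p under 0.05, 4 isoforms were lower and 1 higher, against 19.9% of all genes lower and 17.9% higher. The median log2 change was -0.12 over the 8 isoforms and -0.02 over all genes.

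**Figure D1:**
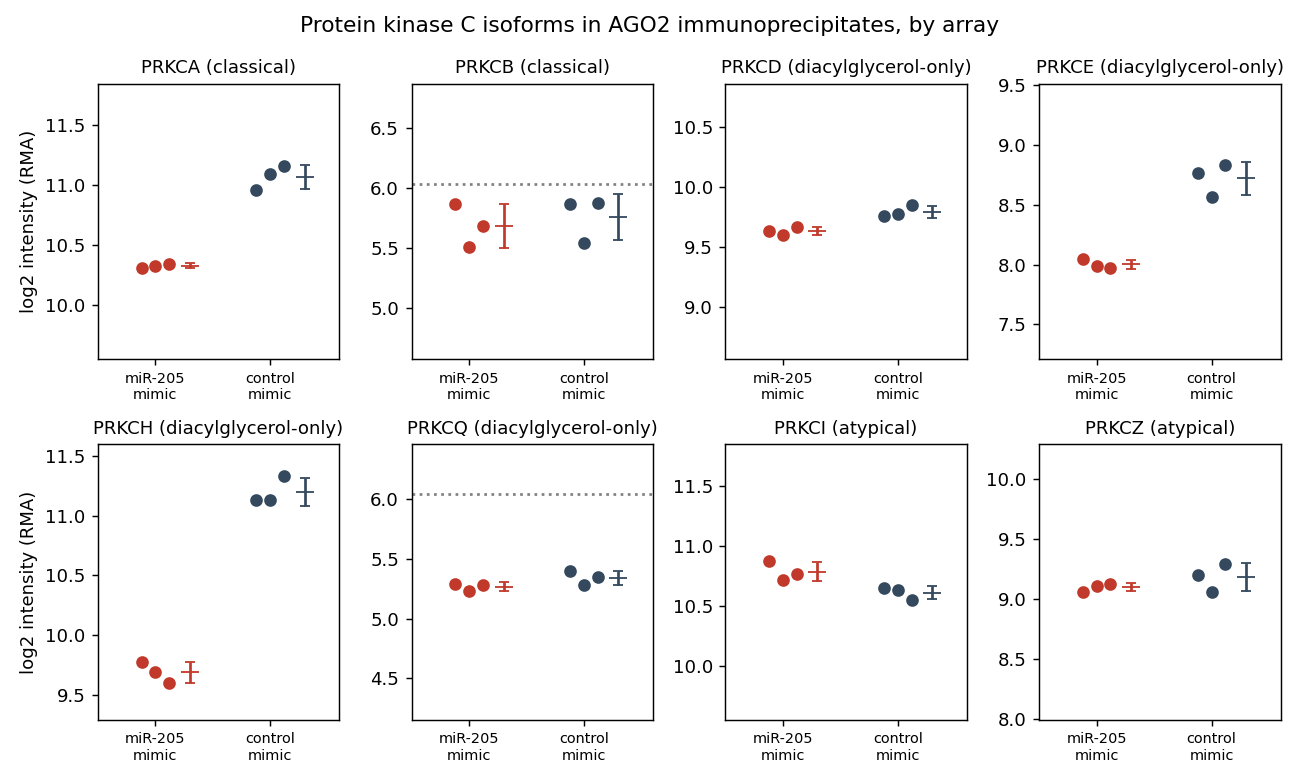
Log2 intensity (RMA) of each protein kinase C isoform in the 3 miR-205 mimic arrays (red, left) and the 3 negative control mimic arrays (dark, right), with mean and SD beside the points. All panels span the same range of log2 units, and the dotted line in the PRKCB and PRKCQ panels is the dim level of 6.04. The groups are far apart for PRKCH, PRKCA and PRKCE and close together for the other 5.

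PRKCH encodes PKC eta, a diacylglycerol-only isoform prominent in epithelia. It read 9.78, 9.70 and 9.60 in the miR-205 arrays, against 11.13, 11.13 and 11.33 in the control arrays. Every miR-205 array lay more than 1 log2 unit below every control array. Control replicate 3 was higher than the other control arrays, and without it the change was -1.44. The log2 change was -1.51 ± 0.08 (SE, n = 3 per group, 95% interval -1.68 to -1.33, adjusted p = 1.57e-05). On the linear scale the miR-205 signal was 35.2% of the control signal, a 2.84-fold fall, which ranked 10 among the falls of all 18417 genes. With any 1 array left out the change stayed between -1.55 and -1.44.

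PRKCA encodes PKC alpha, a classical isoform present in most cell types. Its miR-205 arrays read 10.31, 10.33 and 10.35, and its control arrays 10.96, 11.09 and 11.16. The miR-205 arrays were nearly identical, with an SD of 0.02 against 0.10 among control arrays, and the groups did not overlap. PRKCA fell by 0.74 ± 0.07 on the log2 scale (SE, n = 3 per group, 95% interval -0.90 to -0.59, adjusted p = 0.000146), to 59.8% of the control signal. PRKCA ranked 209 among the falls.

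PRKCE encodes PKC epsilon, the diacylglycerol-only isoform reported elsewhere as a miR-205 target. Whether direct targeting has a part in its AGO2-bound signal was not tested. PRKCE read 8.05, 7.99 and 7.97 with miR-205, against 8.77, 8.57 and 8.83 with the control. The lowest control array was replicate 2, which still lay above every miR-205 array. The log2 change was -0.72 ± 0.08 (SE, n = 3 per group, 95% interval -0.90 to -0.54, adjusted p = 0.000347), or 60.7% of the control signal. PRKCE ranked 236 among the falls, and without control replicate 2 its change was -0.80. PRKCA and PRKCE thus fell by similar amounts, with intervals that overlap almost wholly, and a difference between them was not tested.

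**Figure D2:**
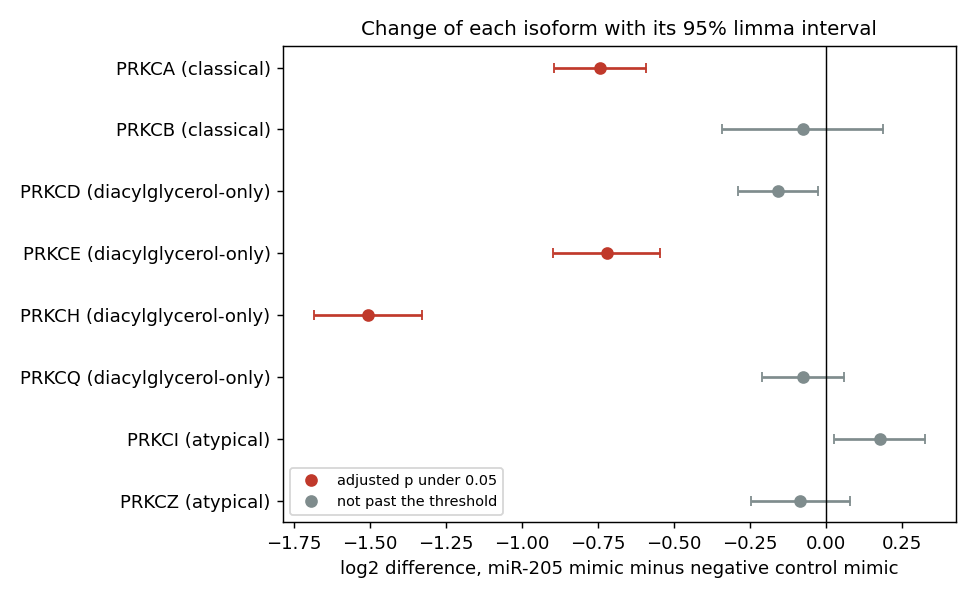
Log2 difference of each isoform, miR-205 mimic minus negative control mimic, with its 95% limma interval (3 arrays per group). Red points passed an adjusted p of 0.05 and grey points did not. The interval of PRKCH, -1.68 to -1.33, lies wholly below those of PRKCA and PRKCE.

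PRKCH and PRKCE are close relatives within the diacylglycerol-only class, and their falls were compared within each array. PRKCH minus PRKCE was 1.73, 1.71 and 1.64 in the miR-205 arrays, against 2.36, 2.56 and 2.50 in the control arrays. The signals of different probe sets are not on a common scale, so only the shift of this difference between groups carries information. It averaged 1.69 ± 0.05 with miR-205 and 2.48 ± 0.10 with the control (SD, n = 3 each). The shift was -0.79 (two-sided exact permutation test, p = 0.1), and with 3 arrays in each group this test cannot return a smaller p. The differences did not overlap between groups, so leaving out 1 array could not change the direction. The shift then lay between -0.84 and -0.74.

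**Figure D3:**
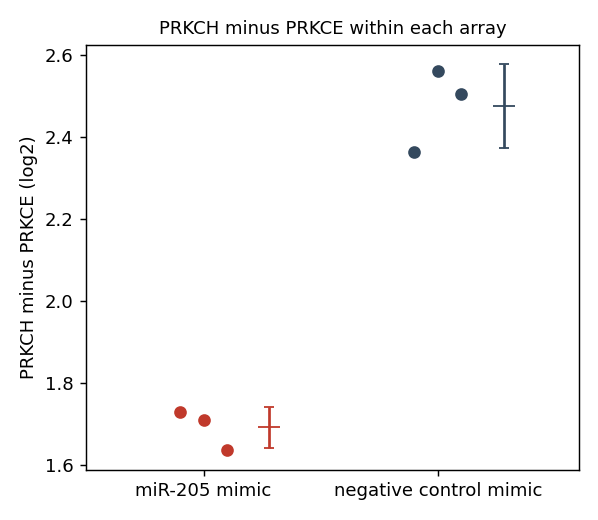
PRKCH minus PRKCE (log2) within each array, for the miR-205 mimic (left) and the negative control mimic (right), with mean and SD beside the points. The miR-205 arrays sit between 1.64 and 1.73 and the control arrays between 2.36 and 2.56.

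The other diacylglycerol-only isoforms moved little. PRKCD, PKC delta, read 9.64, 9.60 and 9.67 with miR-205, against 9.76, 9.78 and 9.85 with the control. The groups did not overlap, but the gap was small. The log2 change of PRKCD was -0.16 ± 0.06 (SE, 95% interval -0.29 to -0.03), and its adjusted p of 0.079 missed the threshold. With dim genes left out of the test the same change had an adjusted p of 0.0487. PRKCQ, PKC theta, is known for signalling from the T cell receptor. Its values were 5.29, 5.23 and 5.28 with miR-205 and 5.40, 5.28 and 5.35 with the control. The groups overlapped and all values were in the dim range, where a change could be missed (log2 change -0.07, 95% interval -0.21 to 0.06, adjusted p = 0.41).

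PRKCB, PKC beta, the classical isoform known for its role in B cells, was dim as well. It read 5.87, 5.51 and 5.68 with miR-205, against 5.87, 5.54 and 5.88 with the control. The groups covered nearly the same range, and PRKCB had the widest 95% interval of the 8 isoforms, -0.34 to 0.19 (log2 change -0.08, adjusted p = 0.69). Without miR-205 replicate 2 its change was 0.01, so it had no stable direction.

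The atypical isoforms bind PAR6 adaptors in polarity complexes of epithelial cells. PRKCI, PKC iota, was the 1 isoform with a positive difference. It read 10.88, 10.72 and 10.76 with miR-205, against 10.65, 10.63 and 10.55 with the control. Every miR-205 array lay above every control array. The log2 change was 0.18 ± 0.07 (SE, 95% interval 0.03 to 0.33, adjusted p = 0.0805), which did not pass. It passed only with a robust variance with a trend (adjusted p = 0.034), 1 of 14 alternative settings. PRKCZ, PKC zeta, read 9.06, 9.11 and 9.13 with miR-205, against 9.20, 9.06 and 9.29 with the control. Control replicate 2 was as low as the lowest miR-205 array, and the log2 change of -0.08 did not pass (95% interval -0.25 to 0.08, adjusted p = 0.439).

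The groups did not overlap for 5 of the 8 isoforms, namely PRKCA, PRKCD, PRKCE, PRKCH and PRKCI, against 42.2% of all genes. Within groups the isoforms were tight: the SD over 3 arrays was 0.02 to 0.18 with miR-205 and 0.05 to 0.19 with the control, with the highest value of each in the dim PRKCB. The 3 falls remained past the threshold under all 14 alternative settings, including the one without control replicate 2. All arrays were AGO2 immunoprecipitates and no input RNA was analysed here. A lower signal can therefore reflect fewer transcripts in the cell, fewer of them on AGO2, or fewer cells that express the gene, and these cannot be told apart.

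The genes whose patterns over the 6 arrays were most like those of the falling isoforms were found by the root mean square difference of mean-centred log2 values, a measure of likeness in size and shape. Nearest to PRKCH were JADE3 (0.054), COL6A3 (0.075) and BICC1 (0.076), with log2 changes of -1.54, -1.50 and -1.63. Nearest to PRKCA was LAMC1, a laminin chain, at 0.016, followed by SH3PXD2B (0.036) and CNNM2 (0.037). LAMC1 read 10.48, 10.49 and 10.47 with miR-205 and 11.11, 11.25 and 11.29 with the control. Nearest to PRKCE were HOXB13 (0.026), FAM222B (0.028) and VIRMA (0.035), and HOXB13, like PRKCE, was lowest among control arrays in replicate 2. PRKCA and PRKCE differed from each other by 0.103, and 198 genes were closer to PRKCA than PRKCE was. Such likeness over 6 arrays mostly reflects the step between the groups.

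Genes that act around the isoforms were followed in 6 lists, 81 genes in all, of which 73 were measured. The lists were made with earlier results of these arrays known. Of the 73, 16 were lower (21.9%) and 9 higher (12.3%), against 14.0% and 12.6% of all genes. Their median log2 change was -0.04. Without control replicate 1 the number of higher genes was 5. RACK1, an anchor of active PKC, was listed but not analysed here.

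**Figure D4:**
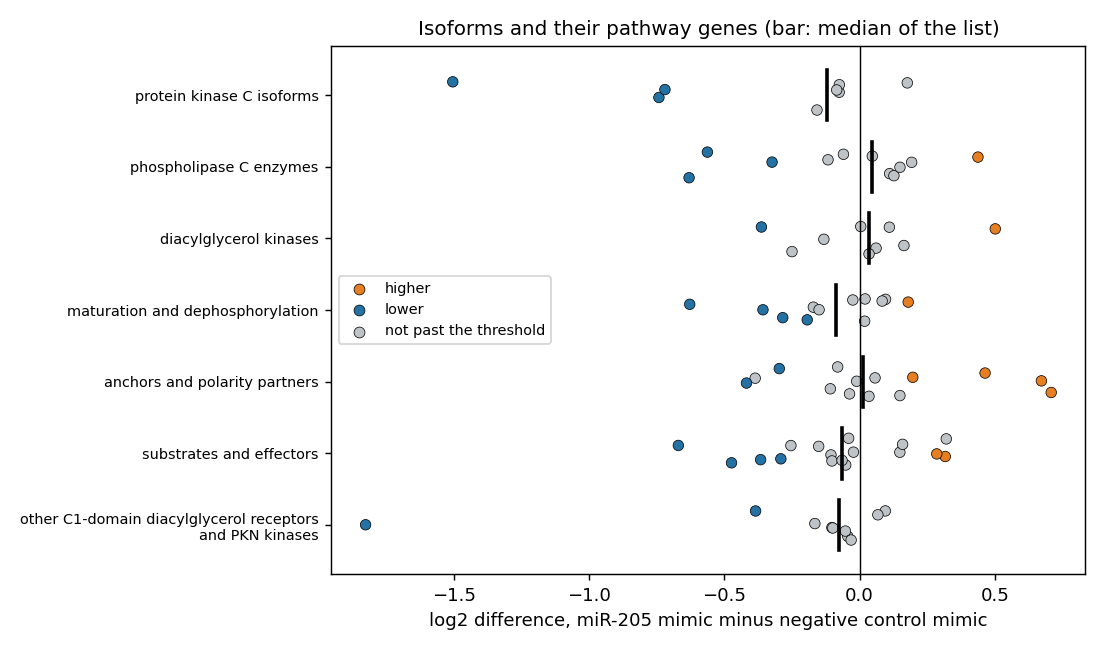
Log2 difference, miR-205 mimic minus negative control mimic, of the 8 isoforms and of the measured genes in each of 6 pathway lists (1 point per gene, vertical jitter only for visibility). Blue and orange points passed an adjusted p of 0.05, grey points did not, and the black bar is the median of the list. CHN1, at -1.83, and PRKCH, at -1.51, lie furthest to the left.

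Phospholipase C enzymes make the diacylglycerol that activates the classical and diacylglycerol-only isoforms. Of 11 measured, 3 fell (27.3%, against 14.0% of all genes) and 1 rose (9.1%, against 12.6%). PLCG1, which acts below receptor tyrosine kinases, had signals of 10.71 ± 0.04 with miR-205 and 11.34 ± 0.08 with the control (SD, n = 3 each, log2 change -0.63, adjusted p = 0.000258). PLCE1, an effector of Ras, fell by 0.56, and PLCB1, an effector of Gq-coupled receptors, fell by 0.32. PLCD4 rose by 0.44 (adjusted p = 0.0253), but this call was lost without either of miR-205 replicates 1 and 2 or control replicates 1 and 3 (adjusted p = 0.0874, 0.0914, 0.0852 and 0.0935). PLCG2 (0.15, adjusted p = 0.119) and PLCD3 (0.19, adjusted p = 0.0523) did not pass.

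Diacylglycerol kinases end the signal by converting diacylglycerol to phosphatidic acid. Of 9 measured, 1 rose (11.1%, against 12.6% of all genes) and 1 fell (11.1%, against 14.0%), both near the shares of all genes. DGKA averaged 9.72 ± 0.04 with miR-205 and 9.22 ± 0.15 with the control (SD, n = 3 each), a rise of 0.50 (adjusted p = 0.00267). DGKG fell by 0.36 (adjusted p = 0.0157), a call lost without miR-205 replicate 2 (adjusted p = 0.0617). DGKD (-0.25, adjusted p = 0.0541) passed only without control replicate 1 (adjusted p = 0.0203) or in several other settings, and DGKZ (0.03) did not pass.

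Newly made PKC is matured by PDPK1 and mTORC2, and its phosphates are removed by phosphatases. Of 12 genes measured in this group, 4 fell (33.3%, against 14.0% of all genes) and 1 rose (8.3%, against 12.6%). The largest change was in PHLPP2, a phosphatase of the PKC hydrophobic motif, with 8.45 ± 0.09 in miR-205 arrays and 9.08 ± 0.09 in control arrays (SD, n = 3 each, log2 change -0.63, adjusted p = 0.000523). The mTORC2 subunits MAPKAP1 (-0.36, adjusted p = 0.00414) and RICTOR (-0.28, adjusted p = 0.0237) also fell, as did the phosphatase 2A scaffold PPP2R1A (-0.19, adjusted p = 0.0319). The falls of RICTOR and PPP2R1A were lost without any 1 array other than control replicate 2 (adjusted p up to 0.0814 and 0.109), which left 2 falls. The gene that rose, HSP90AB1 (0.18, adjusted p = 0.0489), was named after its values were seen, and its call was lost without any 1 of the 6 arrays (adjusted p = 0.0743 to 0.147). HSP90AA1 (-0.15) and PPP2CA (0.08) did not pass.

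Anchors and polarity partners hold isoforms at their sites. Of 14 measured, 4 rose and 2 fell. LLGL2, a polarity protein phosphorylated by atypical PKC, averaged 9.07 ± 0.03 with miR-205 and 8.39 ± 0.07 with the control (SD, n = 3 each, log2 change 0.67, adjusted p = 0.000151). The PAR6 adaptors diverged: PARD6A rose by 0.46 (adjusted p = 0.00443) and PARD6G fell by 0.30 (adjusted p = 0.00532). WWC1, or KIBRA, which binds atypical PKC, fell by 0.42 (adjusted p = 0.00116). SQSTM1 (-0.01) and PARD3 (-0.04) did not pass.

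A few more partners were named after their values were seen. PARD6B read 9.17, 9.15 and 9.16 with miR-205, against 9.78, 9.01 and 9.85 with the control. Control replicate 2 was the lowest of all 6 arrays, and PARD6B did not pass with it (-0.39, adjusted p = 0.176) but did without it (-0.66, adjusted p = 0.000184). AKAP12, a scaffold that binds PKC, rose by 0.71 (adjusted p = 0.00949), and by 0.56 to 0.91 with 1 array left out (adjusted p up to 0.0437), the most without control replicate 2. YWHAZ, a 14-3-3 protein, rose by 0.20 (adjusted p = 0.0289), a call lost without any 1 array other than control replicate 2 (adjusted p up to 0.104).

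Of 17 measured substrates and effectors, 4 fell (23.5%, against 14.0% of all genes) and 2 rose (11.8%, against 12.6%). MARCKS, a membrane-bound actin regulator and classical PKC substrate, averaged 9.85 ± 0.08 with miR-205 and 10.52 ± 0.04 with the control (SD, n = 3 each), a change of -0.67 (adjusted p = 0.000205). Its relative MARCKSL1 did not pass (0.15, adjusted p = 0.111). PRKD3, a protein kinase D activated by PKC, fell by 0.37 (adjusted p = 0.00594). MALT1, the protease of the complex that links PKC to NF-kappa-B, fell by 0.47 (adjusted p = 0.000802), while the adducin ADD3 rose by 0.29 (adjusted p = 0.00739). PEBP1 (-0.10, adjusted p = 0.233) did not pass.

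The remaining calls in this list were PRKD1 and BCL10, named after their values were seen. PRKD1 fell by 0.29 (adjusted p = 0.0241), a call lost without miR-205 replicate 2 or 3 or control replicate 1 or 3 (adjusted p = 0.0943, 0.0844, 0.0523 and 0.0815). BCL10, the partner of MALT1, rose by 0.32 (adjusted p = 0.0233), a call lost without miR-205 replicate 3 or control replicate 1 or 3 (adjusted p = 0.0576, 0.0584 and 0.074). Without miR-205 replicate 3 or control replicate 1 the list therefore had 1 rise.

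Other proteins with a diacylglycerol-binding C1 domain and the PKC-related PKN kinases formed the last list. Of 10 measured, 2 fell (20.0%, against 14.0% of all genes) and 0 rose (against 12.6%) by limma. At an unadjusted limma p under 0.05, 3 were lower and 0 higher, against 19.9% and 17.9% of all genes. CHN1, a chimaerin that switches off Rac, read 7.08, 7.13 and 7.10 with miR-205, against 8.89, 8.95 and 8.95 with the control. Its change of -1.83 (adjusted p = 2.34e-06) was larger than that of any isoform. RASGRP3, an activator of Ras, fell by 0.38 (adjusted p = 0.0115) in the dim range, with 5.56 ± 0.05 in miR-205 arrays and 5.94 ± 0.17 in control arrays (SD, n = 3 each). PKN2 (-0.17, adjusted p = 0.107) and UNC13B (0.07) did not pass. In this list 5 of 10 genes were above the dim level.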

How the data were processed

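RNA from AGO2 immunoprecipitates of PC3 cells was read on 6 arrays, 3 per mimic. The series design calls the samples of a group biological replicates, and groups were taken from the sample titles. The authors deposited log2 intensities, which were used without change. Per the submitters' processing notes, these came from Affymetrix Expression Console 1.1.2 and RMA. Of 33297 probe sets, 19460 named 1 gene symbol in the platform annotation and 1754 named several, which were left out. Each isoform had 1 probe set, and 769 other genes with several were read from their brightest.

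The test was a two-sided limma fit (limma 3.58.1, R 4.3.3) with group as its term, adjusted over 18417 genes. The permutation test used scipy 1.17.1. The limma step was tested on simulated data. The isoforms and lists were chosen with earlier results of these data known. Named in the text were all isoforms, per list up to 4 genes past the threshold with the smallest p and the 2 brightest that did not pass, the 3 genes nearest in pattern to each falling isoform, and a few marked as chosen later. Of 81 listed genes, 8 were not analysed here. Alternatives covered normalization, variance model, array weights, dim genes, probe set summary, the replicate number as a block, and each array left out. Precision is limited by having 3 arrays per group.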

Additional observations from a re-analysis of the deposited data

Results flagged for a closer look

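PDPK1, the kinase that phosphorylates the PKC activation loop, is also named by probe sets that list it together with RPS26 and related loci. These were left out of the comparisons, and 1 of the 4 passed the threshold. It was higher with miR-205 by 0.45 (log2, adjusted p = 0.0396 by limma over all 33297 probe sets), with 9.48, 9.41 and 9.55 in the miR-205 arrays, against 9.08, 9.22 and 8.81 in the control arrays. The other 3 had differences of 0.31, 0.28 and 0.29 that did not pass (adjusted p = 0.0617 to 0.0789). PDPK1 also had 4 single-gene probe sets, of which the brightest stood for it in the comparisons, with a difference of 0.02. The others had differences of 0.09, 0.21 and 0.21, the last pair with identical values, and none of the 4 passed in the same fit (adjusted p = 0.169 to 0.891). Which of the named genes these probe sets read was not tested.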

How the results depend on the processing

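The calls of PRKCH, PRKCA and PRKCE, and their direction, held under all 14 alternatives, with log2 changes of -1.55 to -1.44, -0.80 to -0.70 and -0.80 to -0.67. PRKCD passed with dim genes left out (-0.16, adjusted p = 0.0487) and PRKCI with a robust variance with a trend (0.18, adjusted p = 0.034), which made the count of higher isoforms 1 in place of 0. PRKCB lay between -0.19 and 0.015 with 1 array left out, and was positive without miR-205 replicate 2. Pathway genes that were higher numbered 5, in place of 9, when all probe sets were tested, 5 to 8 with 1 array left out, 10 with dim genes left out and 13 with a robust variance with a trend. DGKZ turned to -0.010 with the mean of probe sets, and SQSTM1 lay between -0.027 and 0.0070 with 1 array left out, positive without miR-205 replicate 1 or control replicate 3. With the replicate number as a block, 3 isoforms were lower and 0 higher (PRKCH -1.51, adjusted p = 0.000274), and 16 pathway genes were lower and 7 higher. The block ended the calls of PPP2R1A, HSP90AB1 and YWHAZ (adjusted p = 0.0626, 0.0827 and 0.0564) and added DGKD (0.0337). Same-numbered arrays shared little beyond the number: their deviations from the group means correlated at 0.06, 0.09 and 0.01. PRKCB and PRKCQ were dim, so falls in them could be missed.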
